A study of Mus musculus with 6 samples.

Results

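The epidermal growth factor (EGF) family was followed here through 9 genes, namely the ligands Areg, Ereg, Hbegf, Btc, Tgfa and Nrg1 and the receptors Egfr, Erbb2 and Erbb3, in a mouse endothelial cell line with and without overexpressed SOD3. The members were all spots that are not controls and whose annotation names one of these genes. They came to 38 of the 59305 such spots on each array, and to 11 of the 55681 different probes, of which 8 are printed once and 3 are printed 10 times. The cells were 1G11, a microvascular endothelial line of strain C57BL/6NCrLBR, and both groups had spent 6 h in N202.1A-conditioned medium, N202.1A being a mouse mammary cancer line, so that no array shows cells without that medium. The groups were 1G11-mock, the control line without SOD3 overexpression, and 1G11-SOD3, which was modified to overexpress SOD3, the secreted superoxide dismutase, with 3 biological replicates each on 6 single-color Agilent arrays. Each group is 1 derived line, and whether it descends from 1 clone is not given in the sources used here. The comparison asks how the transcripts of these ligands and receptors differ in cells with high SOD3.

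EGF family ligands are made as membrane-anchored precursors, and metalloproteases of the ADAM family cut them free. Areg, Ereg, Hbegf, Btc and Tgfa bind the EGF receptor, Hbegf and Btc also bind ErbB4, and the neuregulins, such as Nrg1, bind ErbB3 and ErbB4. Bound receptors pair with each other, phosphorylate their tails and switch on the MAP kinase and PI3 kinase pathways, whereas ErbB2 binds no known ligand and serves as a partner, and the kinase of ErbB3 is nearly inactive. In blood vessels, Nrg1 made by endothelium signals to heart muscle, and Hbegf is made by endothelial cells under inflammatory stimuli.

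Of the 11 probes, 8 were well above background on all 6 arrays by the call of the scanner software, and 3 were above it on none. The 8 probes stand for 6 genes, the receptors Egfr (3 probes) and Erbb2 and the ligands Ereg, Hbegf, Btc and Nrg1. Those on none were the probes of Areg, Tgfa and Erbb3, for which no fitted fold change is given. The values below are log2 intensities after normexp background correction and quantile normalization. On that scale the negative control spots of an array had medians from 6.53 to 6.79, and the dimmest probe that was well above background lay between 7.56 and 8.17. The plot of levels by array shows every member on this scale. Levels are compared between arrays for 1 probe at a time, since the intensities of different probes cannot be set against each other.

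**Figure D1:**
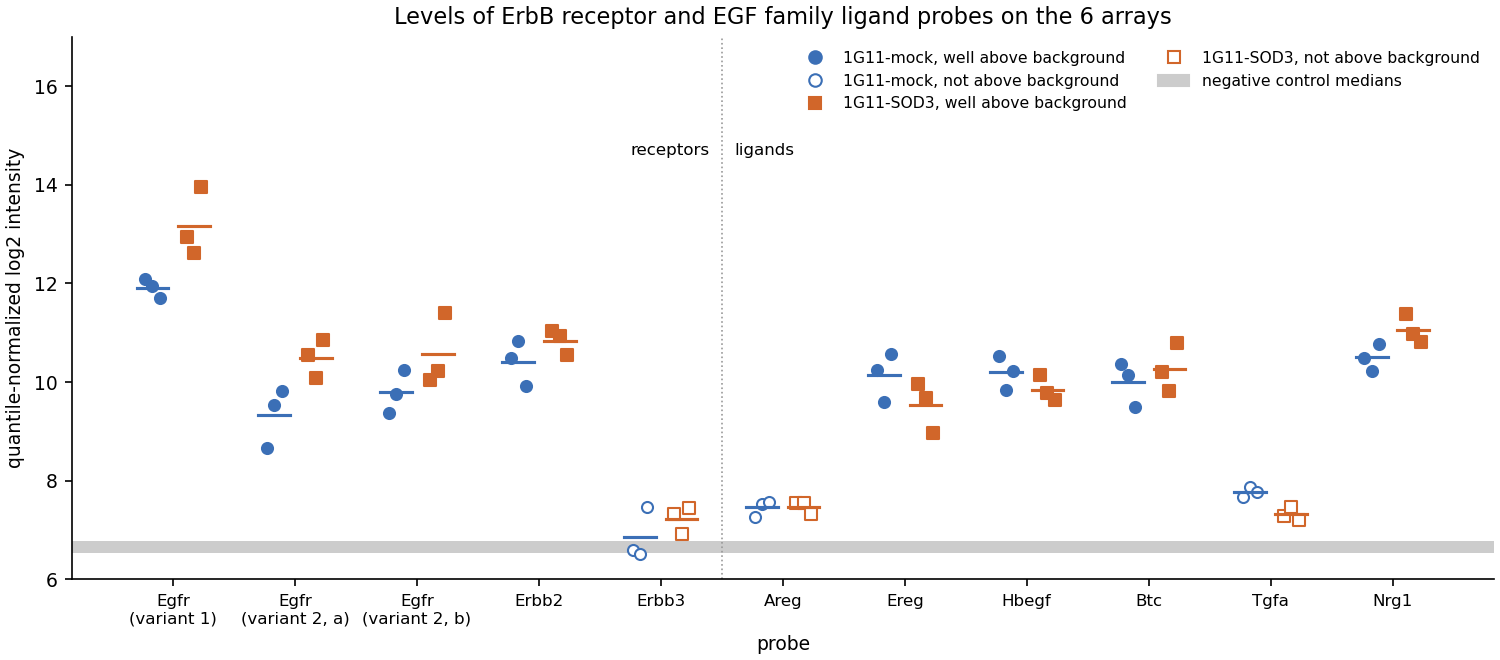
Quantile-normalized log2 intensity (vertical axis) of the 11 probes on each of the 3 1G11-mock arrays (circles) and the 3 1G11-SOD3 arrays (squares), replicates from left to right, with the mean as a line and open symbols for probes not above background. In Egfr (variant 1) the 1G11-SOD3 arrays lie between 12.62 and 13.95 and the 1G11-mock arrays between 11.70 and 12.09, whereas the groups overlap for Erbb2, Ereg, Hbegf and Btc.

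The results turn on the probes of Egfr, Erbb2 and Tgfa. Egfr has 3 probes of 60 bases that do not overlap, and the first 30 bases of each are shown, because each reads another stretch of the transcripts, on the same 6 arrays. The probe of transcript variant 1 and the probes of Erbb2 and Tgfa are each printed at 10 places, which lets 1 sequence be read at 10 spots of the same array. Bases are in lower case, 5′ to 3′, as the scanner files give them.
Egfr variant 1 (A_52_P106259): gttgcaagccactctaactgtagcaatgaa
Egfr variant 2, probe a (A_55_P1956862): gaagtgtggccatctgggtacgttcaatgg
Egfr variant 2, probe b (A_55_P1956863): tctggaagtatgcagatgccaataatgtct
Erbb2 (A_52_P49250): ggctatgccaggaacgtgccctgaggaacc
Tgfa (A_51_P415126): tggacatacacagaaccaaaccatgagtta
The whole probes hold 35%, 45%, 48.3%, 55% and 45% G and C, in the order shown. The files place the Egfr probes on chromosome 11, the variant 1 probe at 16813815 to 16813874, probe a at 16787172 to 16787231 and probe b at 16783556 to 16783615, so that probes a and b are 3.62 kb apart and the variant 1 probe lies 26.6 kb beyond probe a. The Erbb2 probe lies on the same chromosome at 98298103 to 98298162, and the Tgfa probe on chromosome 6 at 86224838 to 86224897. The files give no build for these positions and do not say whether they are coding or untranslated.

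None of the 11 member probes passed the test that the study's methods describe, a change of more than 2-fold with an adjusted p under 0.05 (limma, Benjamini-Hochberg adjustment over all 55681 probes), which 2.93% of all probes passed. At an unadjusted p under 0.05 there were 3 member probes, 2 of Egfr and that of Nrg1, all higher in 1G11-SOD3 cells. Among the 8 probes above background, 6 had a higher and 2 a lower mean in 1G11-SOD3 cells, and their median log2 fold change was 0.49, against -0.13 over the 16273 probes of the array that were above background on all 6 arrays. The values of the lines did not overlap for 3 of the 8 probes, again 2 of Egfr and that of Nrg1, and they did not overlap for 31% of those 16273 probes, so that this count is near the background share.

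Egfr, the receptor of most ligands of the family, showed the largest differences among the members. Its variant 1 probe read 12.09, 11.94 and 11.70 on 1G11-mock replicates 1, 2 and 3 and 12.94, 12.62 and 13.95 on those of 1G11-SOD3, the order kept throughout. Every 1G11-SOD3 array was above every 1G11-mock array, and replicate 3 stood above the other 1G11-SOD3 arrays. The 1G11-mock mean was 11.91 ± 0.20 (SD, n = 3) and that of 1G11-SOD3 was 13.17 ± 0.69 (SD, n = 3), which makes a log2 fold change of 1.26 with a standard error of 0.32 and a 95% interval from 0.55 to 1.97, or 2.39-fold. Its adjusted p was 0.0645 (limma, Benjamini-Hochberg), so the probe passed the fold threshold and missed that of the adjusted p. Among 14 other ways of processing the arrays, its adjusted p ran from 0.0075 to 0.215 and its log2 fold change from 0.93 to 1.41, and 4 of them put it past the threshold.

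The variant 2 probes of Egfr differed in the same direction. This transcript encodes a shorter receptor without the kinase domain, and the files do not say whether its probes also match variant 1. Probe a read 8.66, 9.53 and 9.83 on the 1G11-mock arrays and 10.56, 10.07 and 10.86 on the 1G11-SOD3 arrays. Here too the lines did not overlap, although 1G11-mock replicate 1 stood apart from the other 1G11-mock arrays. The log2 fold change of probe a was 1.16 with a standard error of 0.32, a 95% interval from 0.45 to 1.87 and an adjusted p of 0.0940 (limma, Benjamini-Hochberg). Without 1G11-mock replicate 1 it was 0.82 (adjusted p 0.201). Probe b read 9.38, 9.75 and 10.24 on the 1G11-mock arrays and 10.05, 10.23 and 11.39 on the 1G11-SOD3 arrays. For probe b the lines overlapped, since 1G11-mock replicate 3 exceeded 2 of the 1G11-SOD3 arrays, and the log2 fold change of 0.77 had an adjusted p of 0.360 (limma, Benjamini-Hochberg). On all 3 Egfr probes the brightest array was 1G11-SOD3 replicate 3, and without that array their log2 fold changes were 0.88 (variant 1), 0.96 (probe a) and 0.35 (probe b).

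Erbb2, the receptor without a ligand of its own, read 10.49, 10.84 and 9.91 on the 1G11-mock arrays and 11.03, 10.94 and 10.55 on the 1G11-SOD3 arrays. The lines overlapped, with 1G11-mock replicate 2 above 1G11-SOD3 replicate 3. Its log2 fold change was 0.43 with a 95% interval from -0.18 to 1.04 and an adjusted p of 0.536 (limma, Benjamini-Hochberg), so that a change of somewhat more than 2-fold upward lies at the edge of the interval. Without 1G11-mock replicate 3 the Erbb2 value was 0.18, and without 1G11-mock replicate 2 it was 0.65. Erbb3, the receptor for neuregulins that relies on a partner's kinase, was not above background on any array, with values of 6.60, 6.51 and 7.47 in 1G11-mock and 7.33, 6.92 and 7.45 in 1G11-SOD3 cells. The lowest of these readings lay at the level of the negative control spots.

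Among the 4 ligands above background, Nrg1 was the one whose lines did not overlap. It read 10.49, 10.23 and 10.77 on the 1G11-mock arrays and 11.38, 10.97 and 10.82 on the 1G11-SOD3 arrays. The nearest arrays of the lines, 1G11-mock replicate 3 and 1G11-SOD3 replicate 3, were closer to each other than any 2 arrays of the same line. The log2 fold change was 0.56 with a standard error of 0.25, a 95% interval from 0.01 to 1.10 and an adjusted p of 0.334 (limma, Benjamini-Hochberg). The probe was designed on 1 Nrg1 transcript and lies on chromosome 8 at 32928500 to 32928559 in the array annotation. Nrg1 has many isoforms, and which of them share the probe's sequence is not given in the files.

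Ereg and Hbegf, ligands that are induced early by inflammatory signals, had lower means in 1G11-SOD3 cells, and neither passed the test. Ereg read 10.24, 9.61 and 10.56 on the 1G11-mock arrays and 9.97, 9.68 and 8.97 on the 1G11-SOD3 arrays. The 1G11-mock replicate 2 array lay among the 1G11-SOD3 arrays, and the log2 fold change of -0.59 had a 95% interval from -1.30 to 0.11 and an adjusted p of 0.442 (limma, Benjamini-Hochberg). It was -0.31 without 1G11-SOD3 replicate 3, -0.39 without 1G11-mock replicate 3 and -0.87 without 1G11-mock replicate 2. Hbegf read 10.53, 9.84 and 10.22 on the 1G11-mock arrays and 10.14, 9.78 and 9.63 on the 1G11-SOD3 arrays. Here the difference was smaller than for Ereg, with a log2 fold change of -0.35, a 95% interval from -0.91 to 0.21 and an adjusted p of 0.598 (limma, Benjamini-Hochberg), and it was -0.18 without 1G11-mock replicate 1 and -0.53 without 1G11-mock replicate 2. Btc, betacellulin, read 10.37, 10.15 and 9.50 on the 1G11-mock arrays and 10.20, 9.83 and 10.79 on the 1G11-SOD3 arrays, with the lowest 1G11-mock and the highest 1G11-SOD3 value both in replicate 3. Its log2 fold change was 0.26 with a 95% interval from -0.41 to 0.94 and an adjusted p of 0.760 (limma, Benjamini-Hochberg). This estimate rested on single arrays, since it was 0.0077 without 1G11-mock replicate 3 and 0.0021 without 1G11-SOD3 replicate 3, and 0.45 and 0.48 without 1G11-mock replicate 1 and 1G11-SOD3 replicate 2.

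Areg, which activates the EGF receptor, and Tgfa, the ligand named transforming growth factor alpha, were not above background. The Areg probe read 7.27, 7.54 and 7.57 in 1G11-mock and 7.55, 7.55 and 7.33 in 1G11-SOD3 cells, so that the lines covered the same range. The Tgfa probe, averaged over its copies, read 7.68, 7.87 and 7.77 in 1G11-mock and 7.28, 7.47 and 7.21 in 1G11-SOD3 cells. All 1G11-SOD3 values of Tgfa were below all 1G11-mock values, but of 48 readings of its copies outside the middle of the array, 2 were well above background, both in 1G11-mock cells. At this signal a difference in Areg, Tgfa or Erbb3 was not detectable, which does not mean that these transcripts were absent.

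The values also varied with the position of a spot. In a rectangle at the center of the array, called the middle here, which holds 6606 of the 59305 spots, the 1G11-mock arrays were dim, as the copies of Egfr and Erbb2 show. Of the 10 copies of the Egfr variant 1 probe, 8 lie outside the middle, and there the difference between the lines (log2, 1G11-SOD3 minus 1G11-mock, readings marked as outliers included) was 0.67 to 1.27, positive at 8 of 8. The 2 copies in the middle gave 3.40 and 2.62. The values of the lines did not overlap at 1 of the 8 outer copies, and they overlapped at the others. Averaged over the 8 outer copies, the arrays read 12.13, 12.02 and 12.49 in 1G11-mock and 12.77, 12.65 and 13.90 in 1G11-SOD3 cells. On 1G11-mock replicate 3, the copies outside the middle had a mean of 12.49 and those inside one of 8.53, whereas on 1G11-SOD3 replicate 3 the means were 13.90 and 14.14. The 1 Erbb2 copy in the middle gave a difference of 2.61, and the 9 others gave -0.06 to 0.88, with the 2 highest, 0.61 and 0.88, at 11 and 10 rows from its edge. That middle copy of Erbb2 was marked as an outlier on 3 arrays and was left out of the probe mean there. For Tgfa, whose signal was near background, differences of -1.07 to -0.16 were read at the 8 outer copies and of -0.15 and 0.17 at the 2 inner ones, which show how readings varied by place and not a level of Tgfa.

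**Figure D2:**
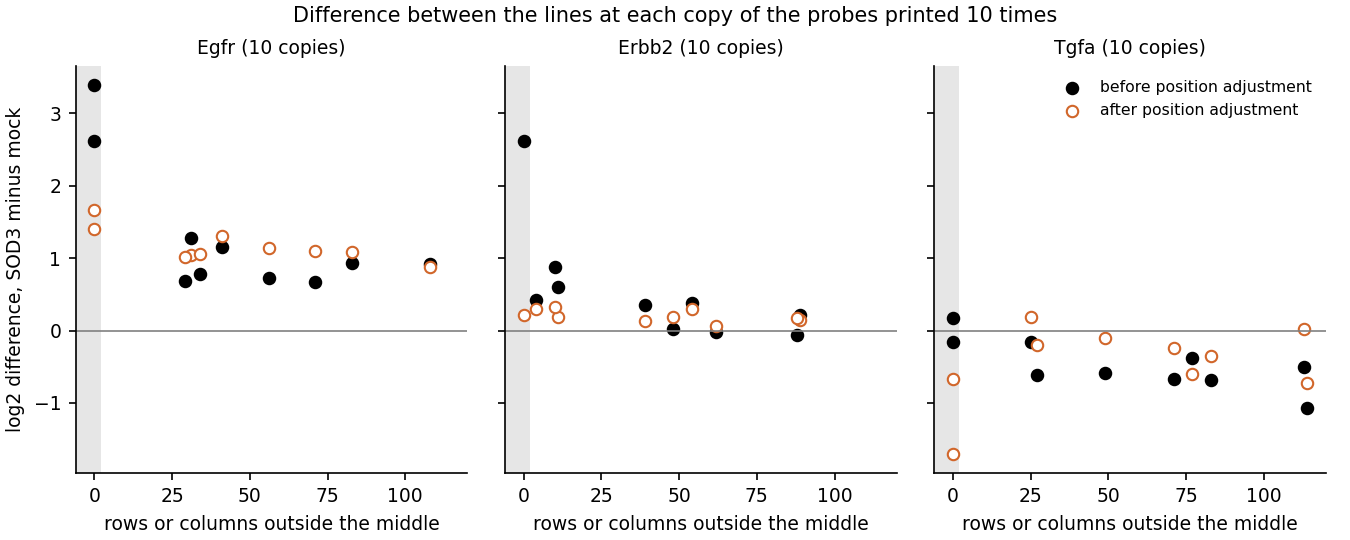
Log2 difference between the lines (1G11-SOD3 minus 1G11-mock, vertical axis) at each of the 10 copies of the Egfr variant 1, Erbb2 and Tgfa probes against the distance in rows or columns from the middle of the array (horizontal axis, 0 and gray for copies inside it), before (filled) and after (open) position adjustment. The Egfr copies outside the middle lie between 0.67 and 1.27 and those inside at 2.62 and 3.40 before adjustment, and after it the ranges are 0.88 to 1.31 and 1.40 to 1.67.

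When the middle was left out of the fit, the Egfr variant 1 probe had a log2 fold change of 0.93 with a 95% interval from 0.23 to 1.62 and an adjusted p of 0.215 (limma, Benjamini-Hochberg), below 2-fold. A position adjustment, in which a smooth surface over row and column was taken off each array, gave 1.11 for this probe (95% interval 0.40 to 1.81, adjusted p 0.0827). Over the 192 brighter probes printed 10 times, this adjustment lowered the median SD of the difference among copies from 0.541 to 0.165. After it, 1 of the 11 member probes passed the test, against 3.88% of all probes, and this was probe a of Egfr, with a log2 fold change of 1.38 (95% interval 0.85 to 1.90) and an adjusted p of 0.0112. Its spot lies near the edge of the array, far from the middle, and its adjusted values were 8.93, 9.51 and 9.15 in 1G11-mock and 10.58, 10.38 and 10.77 in 1G11-SOD3 cells, with the lines further apart and 1G11-mock replicate 1 closer to its group. Probe b gave 1.02 (95% interval 0.41 to 1.62) with an adjusted p of 0.0669, just past 2-fold, and the lines no longer overlapped.

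The adjustment left the other members short of the test. Erbb2 had an adjusted difference of 0.16 (95% interval -0.36 to 0.69), and its 10 copies then lay between 0.06 and 0.33. Nrg1 gave 0.81 (95% interval 0.34 to 1.28, adjusted p 0.0639), with 10.22, 10.27 and 10.62 in 1G11-mock and 11.22, 11.17 and 11.15 in 1G11-SOD3 cells, so that the gap between the lines exceeded the range within either. Btc turned from 0.26 to -0.36 (95% interval -0.87 to 0.15). Its spot lies 6 rows from the middle, where the fitted surface differed by 1.07 between the lines. The surface was fitted before quantile normalization, so this value also holds any difference between the lines over whole arrays. Ereg gave -0.44 and Hbegf -0.57, the latter without overlap between the lines but with an adjusted p of 0.243. In all, 5 of the 8 probes above background had lines that did not overlap after adjustment, against 28.5% of the 16273, with 5 higher and 3 lower in 1G11-SOD3 cells, and their median was 0.49 against 0.03 over the 16273. Of those 5 probes, 3 belong to Egfr. Only spots that 3 or more arrays measured above background entered the surface fit, and for the dim Tgfa copies in the middle it moved the differences from -0.15 and 0.17 to -1.71 and -0.67, so adjusted values are read only for probes above background.

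**Figure D3:**
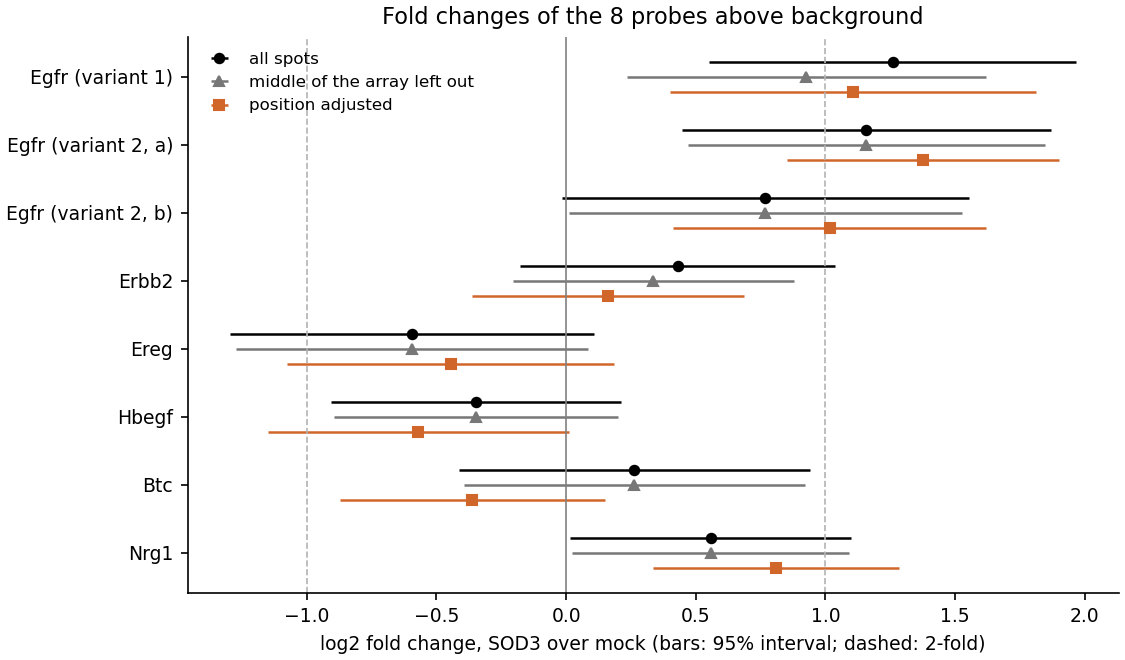
Log2 fold change (horizontal axis, 1G11-SOD3 over 1G11-mock, with 95% intervals from limma) of the 8 member probes above background, with all spots (circles), without the middle of the array (triangles) and after position adjustment (squares). The intervals of the Egfr variant 1 probe, of probe a and of Nrg1 lie above 0 in all 3 fits, and the estimate of Btc changes sign with the adjustment. Probe a and Nrg1 have no spot in the middle, so leaving it out could not change their estimates.

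The other genes of ErbB signaling were read from a list of 71 genes, each through its brightest probe, of which 52 were above background on all arrays of at least 1 line and 12 on no array. Of the 71, 2 passed the test as higher and 3 as lower in 1G11-SOD3 cells, against 2.15% and 1.28% of the 36649 genes on the array and 3.43% in either direction. Both of the higher genes, Epn1 and Lrig3, have their only spot in the middle of the array. Over the 52 the median was -0.17 on the log2 scale, against -0.07 over the 15450 genes above background in the same sense. With each of the 6 arrays left out in turn, Ptprj passed 6 times, Lrig3 2 times, Stam and Epn1 1 time each and Cblb never. After position adjustment 1 of the 71 genes passed, Ptprj, against 4.14% of all genes.

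Of the 6 remaining family members, Egf, Epgn, Nrg2 and Nrg3 were above background on no array and Erbb4, a second neuregulin receptor, on 1 array of 1G11-SOD3 cells. Nrg4, a neuregulin that binds ErbB4, had 2 probes. Its brighter probe read 9.13, 8.87 and 9.06 in 1G11-mock and 8.29, 8.44 and 7.79 in 1G11-SOD3 cells, without overlap, and gave a log2 fold change of -0.85 (95% interval -1.38 to -0.32) with an adjusted p of 0.0982 (limma, Benjamini-Hochberg). The dimmer probe read 8.18, 8.57 and 8.74 in 1G11-mock and 7.10, 7.01 and 7.40 in 1G11-SOD3 cells, where it was not above background on any array. On the 1G11-mock arrays this dimmer Nrg4 probe was above background on 2. With its 1G11-SOD3 readings raised to the dimmest level well above background, it was 1.71-fold lower in 1G11-SOD3 cells before position adjustment. It passed the test with an adjusted p of 0.013 (limma, Benjamini-Hochberg) but not after position adjustment (adjusted p 0.139).

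Ligand release was read through 12 genes, of which 9 were measured on all arrays of a line and none passed. Adam17, the main sheddase of Areg, Tgfa and Hbegf, was above background on no array, which does not mean that its transcript was absent. Adam10, the sheddase of Btc, was bright in both lines, with 13.59 to 14.72 on the 1G11-mock and 13.81 to 14.68 on the 1G11-SOD3 arrays, and its log2 fold change was -0.09 (95% interval -0.82 to 0.64). Adam9 and Adam15, proteases of the same family, and Cd9, a tetraspanin that associates with the Hbegf precursor, had log2 fold changes of -0.86, -0.87 and -0.94 without overlap between the lines, at adjusted p of 0.0934, 0.10 and 0.152. Lines without overlap were also found for 31% of the 16273 probes above background on all 6 arrays. Adam19, which takes part in the processing of neuregulins, had one of 0.77 (adjusted p 0.181).

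Downstream of the receptors, none of the 13 adaptors and docking proteins passed, and their median log2 fold change was -0.09. Of the 12 genes of receptor endocytosis and ubiquitination, Cblb and Stam passed as lower and Epn1 as higher. Cblb, a ubiquitin ligase of active receptors, read 11.06, 10.95 and 10.69 in 1G11-mock and 9.49, 10.08 and 10.02 in 1G11-SOD3 cells, with a log2 fold change of -1.04 and an adjusted p of 0.0449. Stam, part of the complex that sorts ubiquitinated receptors to lysosomes, read 10.11, 10.21 and 10.47 and then 8.62, 9.05 and 9.58, a log2 fold change of -1.18 with an adjusted p of 0.0408. Both lay outside the middle with no overlap between the lines, and after position adjustment both had a log2 fold change of -0.80 that no longer passed (adjusted p 0.0821 for Cblb and 0.127 for Stam). A dimmer probe of each gene, above background on 1 array of each line, had lines that overlapped and did not pass. Its log2 fold change was -0.22 for Cblb and -0.44 for Stam, and 0.10 and 0.39 after position adjustment. Epn1, an endocytic adaptor, went from a log2 fold change of 3.14 (adjusted p 0.0449) to 0.97 (adjusted p 0.281) with that adjustment, and its 1G11-mock arrays alone spanned 11.13 to 15.11.

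All 12 inhibitors of the receptors were above background on every array of at least 1 line, and Ptprj and Lrig3 passed the test. Ptprj, a receptor tyrosine phosphatase that acts on the EGF receptor and on other kinases, read 12.22, 12.02 and 12.45 in 1G11-mock and 10.36, 10.50 and 10.11 in 1G11-SOD3 cells. The lines were far apart relative to their spread, with a log2 fold change of -1.91 (95% interval -2.41 to -1.40), an adjusted p of 0.00142 and, after position adjustment, -1.21 with an adjusted p of 0.0107. It was 1 of 4 Ptprj probes, and the others gave log2 fold changes of 1.48 at a spot in the middle and of -0.79 and -0.69 elsewhere, none of which passed. Position adjustment turned the first of these to -0.73 and brought the others to -0.05 and -0.28. Lrig3, of a family of transmembrane proteins that restrain ErbB receptors, went from 1.76 (adjusted p 0.043) to 0.21 (adjusted p 0.661) on the log2 scale with position adjustment. Errfi1 and Lrig1, inhibitors that EGF receptor activity induces, had log2 fold changes of 0.16 (95% interval -0.40 to 0.73) and -0.12 (95% interval -0.59 to 0.35).

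Of 16 early response genes that EGF receptor activity is known to induce, 10 were measured on all arrays of a line, and none passed the test. Of these 10, 9 had a negative log2 fold change, and the share of negative values over the array was not counted. The median of the 10 was -0.66, against -0.07 over the 15450 genes of the array above background in the same sense. After position adjustment these medians were -0.45 and 0.05. Ptgs2, cyclooxygenase 2, read 9.44, 9.22 and 11.07 in 1G11-mock and 8.05, 8.27 and 8.86 in 1G11-SOD3 cells, with a log2 fold change of -1.51 and an adjusted p of 0.0989. Dusp4 and Dusp6, phosphatases of the MAP kinases, had log2 fold changes of -1.02 (adjusted p 0.0775) and -0.66 (adjusted p 0.237). Egr1, a transcription factor of the first wave, had one of -0.17 with a 95% interval from -1.11 to 0.76. These genes also answer to many other receptors. The plot of fold changes by pathway group shows all measured genes of the list.

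**Figure D4:**
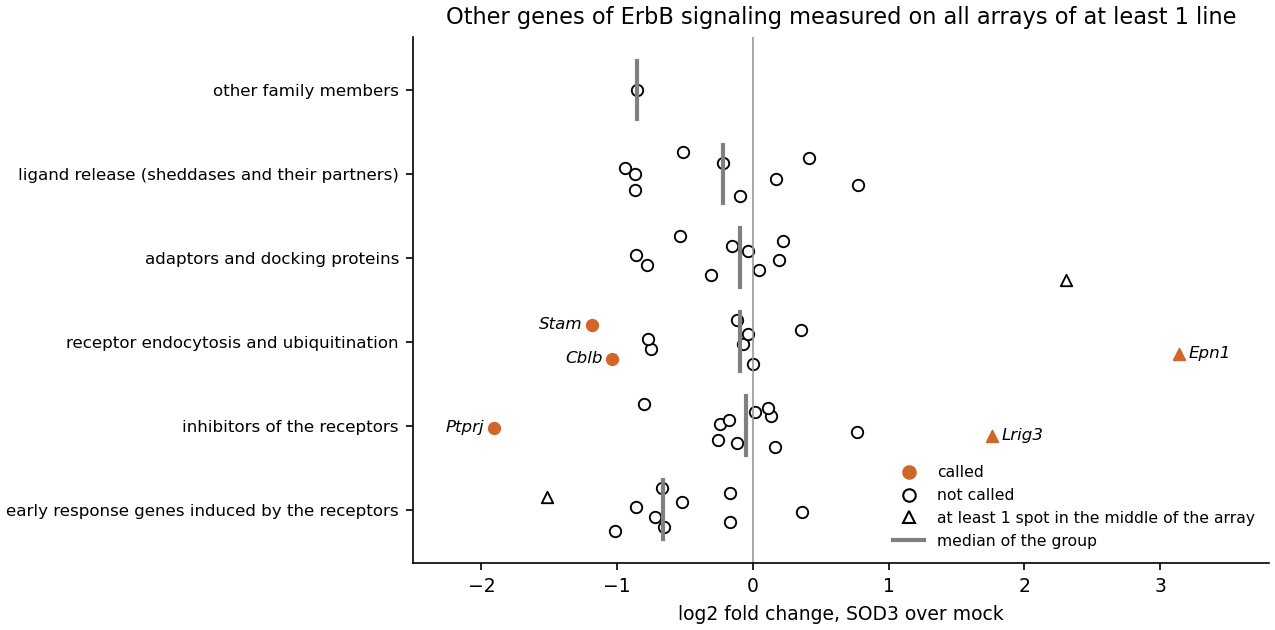
Log2 fold change (horizontal axis, 1G11-SOD3 over 1G11-mock) of the 52 measured genes of 6 groups of ErbB signaling (vertical axis), each through its brightest probe, with the median of a group as a bar, colored symbols for genes that passed the test and triangles for genes with a spot in the middle of the array. Ptprj (-1.91), Stam (-1.18) and Cblb (-1.04) passed as lower, and the genes that passed as higher, Epn1 (3.14) and Lrig3 (1.76), lie in the middle.

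Markers of cell types were read beside Egfr. Of 34 markers, 8 passed the test as higher and 1 as lower in 1G11-SOD3 cells, and 25 did not pass. Over the 36649 genes of the array, 2.15% passed as higher and 1.28% as lower. Of 12 endothelial markers, Kdr, Eng, Vwf and Esam were above background on all arrays and Cdh5, Tek, Tie1, Emcn and Erg on none. Transcripts of several defining markers of the labeled cell type were thus not detected by the probes read. The authors regularly checked the endothelial origin of these cells by staining for VE-cadherin, the protein that Cdh5 encodes. On the array Cdh5 has 1 probe, and a reading near background does not mean that its transcript or protein was absent. Egfl7 passed the test as higher (log2 fold change 1.82) and Vwf as lower (-1.65), and after position adjustment Vwf still passed (-1.36) and Egfl7 did not (0.98, adjusted p 0.083). Of 8 markers of fibroblasts and mural cells, 6 passed as higher in 1G11-SOD3 cells (Pdgfrb, Col1a1, Col1a2, Lum, Acta2 and Tagln), before and after position adjustment, and the mean log2 intensity of the list was 9.48 to 10.06 on the 1G11-mock and 11.31 to 11.89 on the 1G11-SOD3 arrays. Dcn, which is in that mean and did not pass, read 13.51, 13.59 and 17.05 on the 1G11-SOD3 arrays. Egfr was highest on 1G11-SOD3 replicate 3. Among the 1G11-SOD3 arrays, this one had the highest values of Pdgfra, Pdgfrb, Col1a1, Dcn and Lum and the lowest of Acta2, Tagln and Col1a2. Of 8 epithelial markers, Epcam, Krt18 and Cldn4 were above background on no array, and Krt19 was bright on every array (15.40 to 16.76). Cdh1 was above background on all 1G11-SOD3 arrays and on no 1G11-mock array. Its values were 7.75, 7.99 and 7.61 in 1G11-mock and 8.13, 8.18 and 7.96 in 1G11-SOD3 cells, with overlap. The log2 fold change of Cdh1 was 0.30 with an adjusted p of 0.59 (limma, Benjamini-Hochberg). The dimmest level well above background was lower on each 1G11-SOD3 array than on any 1G11-mock array. Krt14 passed as higher in 1G11-SOD3 cells, with 4.82 on the log2 scale and, after position adjustment, 2.03. Its only spot lies in the middle, where the surface, fitted before quantile normalization, differed by 3.07 between the lines. Of the leukocyte markers, Ptprc, Cd68 and Adgre1 were above background on no array, and Itgam (13.91 to 14.44) and Cd3e (10.39 to 11.21) were above it on all 6 with no call. In RNA of whole cultures, more cells of a type and more RNA per cell cannot be told apart, and the part of these markers in the Egfr values was not tested.

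Sod3 itself, whose only spot lies in the middle, read 9.86 to 13.61 on the 1G11-mock and 16.26 to 16.37 on the 1G11-SOD3 arrays, which matches the labels. Between 34.2% and 43.8% of the spots of an array were well above background and none was saturated, and with 3 arrays per line the number of arrays limits the precision of each difference. On the slide, row 1 held every 1G11-SOD3 array and row 2 every 1G11-mock array, and slide row and cell line cannot be told apart.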

How the data were processed

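RNA of 6 cultures was hybridized to 6 single-color arrays (3 per line). The authors deposited the scanner output of Feature Extraction 10.7.3.1, with the mean and background intensity of each spot and no normalization between arrays, and a table of log2 values that were background corrected and quantile normalized with limma per the labels. The scanner output gave all values used here, with the authors' deposited log2 table as an alternative. Mean intensities were corrected with normexp (offset of 50), taken to log2 and quantile normalized without control spots (limma 3.58.1, R 4.3.3). Spots that the scanner software flagged as outliers were dropped, copies of a probe were averaged, and a probe was well above background where most of its spots were. The lines were compared with limma and Benjamini-Hochberg adjustment over 55681 probes. The position surface was fitted with mgcv 1.9.3 on log2 values before quantile normalization. All members are named, and of the other pathway genes those that were called, the other family members and a few that were chosen after their values were seen. The members, the gene lists and the position settings were chosen with earlier results of these data known. Replicate arrays of the lines share numbers 1 to 3. The procedure was tested on simulated data. Alternatives are listed under the dependence on processing, and the paper's pathway analyses were not used here.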

Additional observations from a re-analysis of the deposited data

How the results depend on the processing

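No member probe passed the test under 9 of the 14 processing alternatives. The processed signal of the scanner software called 4 (variant 1 and probe a of Egfr, Nrg1 and the dim Tgfa), scaling to the 75th percentile 2, the replicate block 2, leaving out dim probes 1 and position adjustment 1, and leaving out each array gave 0 to 1. The variant 1 probe of Egfr had a log2 fold change of 1.41 with the processed signal, 1.40 with scaling to the 75th percentile and 1.26 with dim probes left out or with the replicate block, all past the threshold (adjusted p 0.0246, 0.0075, 0.0491 and 0.0447), and 0.88 to 1.52 with an array left out, past it without 1G11-SOD3 replicate 2 (adjusted p 0.0411). Btc reversed to -0.40 with the processed signal and to -0.36 with position adjustment. The 5 pathway genes became 1 without background correction, with an offset of 16 or with position adjustment, 2 with cyclic loess, a variance trend or the middle left out, 3 in the deposited table, 10 with the processed signal, and 1 to 3 with an array left out. All called probes numbered 1629, and 1056 without background correction, 11118 with the processed signal, 2598 with scaling to the 75th percentile, 842 with the middle left out and 775 to 1797 with an array left out (at most 1056 without 1G11-mock replicate 2 or any 1G11-SOD3 replicate). The processed signal and the 75th percentile scaling moved the median log2 fold change of all probes to -0.52 and -0.33. The deviations of same-numbered arrays correlated at 0.17, 0.22 and 0.09 (each array best with its own number, a hint from the data), which does not settle that the numbers pair the arrays, and the replicate block raised the calls to 2252. Same-numbered arrays also share a slide column, so replicate number and slide column cannot be told apart. The cause of these shifts was not tested, and the background limits what can be said of Areg, Tgfa and Erbb3.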
